A study of Gallus gallus with 20 samples.

Results

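Liver RNA of low-laying Guangxi Ma hens at 50 weeks of age was compared with liver RNA of Guangxi Ma hens at 32 weeks. The low-laying group at week 50 held 4 libraries and the week 32 group held 4 libraries, that is 8 of the 20 libraries of the series, and 12808 of 21749 listed genes passed the filter of at least 1 TPM in at least 4 of the 20 libraries. Guangxi Ma is a Chinese local breed, no strain, allele or treatment is given for any group, and all libraries were made from mRNA-enriched whole liver. For the week 32 libraries the sample characteristics read high laying, but the series' design gives that age without a class, and the group is called by its age. Age and laying class therefore cannot be told apart in this comparison. The 4 libraries of high-laying hens at week 50 are given beside both where they bear on a result. Whether each library stands for its own hen is not stated in the labels, so the p-values reflect the spread among libraries, part of which may be technical.

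The liver of a laying hen makes the proteins and lipids of the yolk. Under estrogen it secretes vitellogenins and a specialised very low density lipoprotein whose apolipoproteins B and VLDL-II are carried to the ovary, and it supplies the cholesterol and triglyceride that travel with them. It is also where acute phase, complement and coagulation proteins are made, and it houses macrophages, lymphocytes, stellate cells and sinusoidal endothelium whose RNA enters a whole-tissue library.

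The 8 libraries were similar in the number of genes detected, but not in the share held by the most abundant genes. Between 17582 and 17998 genes were above 0, the TPM sum of a library lay between 788186 and 823344, and the 10 most abundant genes held 13.9% to 25.7% of the listed TPM. The median Spearman correlation of a library with the other 19 ran from 0.923, in week 50 low replicate 3, to 0.949. No pair of the 20 libraries held identical values. Hepatocyte markers were abundant in every library: their summed level was 71732 to 98034 TPM in the week 50 low libraries and 93199 to 107864 TPM in the week 32 libraries, and albumin, ALB, was at 19088, 19575, 8250.2 and 24262 TPM in week 50 low replicates 1 to 4 and 27714, 22048, 15699.7 and 22516 TPM in week 32 replicates 1 to 4.

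No gene was called between week 50 low and week 32 livers at an adjusted p under 0.05 (limma with Benjamini-Hochberg adjustment, 0% of the 12808 genes), and the smallest adjusted p was 0.351. Without adjustment, p was under 0.05 for 861 genes that were higher in week 50 low livers (6.72%) and for 280 that were lower (2.19%). All 4 week 50 low libraries lay above all 4 week 32 libraries for 389 genes (3.04%) and below them for 167 genes (1.3%). The mean was higher in week 50 low livers for 7975 of the 12808 genes and lower for 4830. The median log2 difference over all tested genes was 0.09 on the log2(TPM + 1) scale, which is used for every difference below and understates the change of low genes. When each library was rescaled by the median ratio to a common reference, that median became 0.00 and the counts became 621 higher and 554 lower, so the share of higher genes was 75.5% as deposited and 52.9% after rescaling. Single libraries of both groups moved the count of 861: 435 genes were higher without week 50 low replicate 3 and 1985 without week 50 low replicate 4. It was 592 without week 32 replicate 1 and 608 without week 32 replicate 3. Since no gene passed the adjusted test, differences below are given as measured values with their standard errors (SE) from limma. The SEs use the spread within the groups of all 20 libraries. Each count of list members is to be read against these percentages and counts over all genes. The lists were chosen with earlier results of these data known, so that reading is a description and not a test.

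The gene with the smallest p was THRSPB (chromosome 1, 192749541 to 192750255, build GRCg7b), a thyroid hormone responsive Spot 14 gene that takes part in lipid synthesis in the chicken liver. It stood at 128, 204, 178 and 191 TPM in week 50 low replicates 1 to 4 and 20.7, 44, 54.4 and 43.8 TPM in week 32 replicates 1 to 4. The 4 week 50 low libraries all lay above the 4 week 32 libraries, and week 50 low replicate 1 and week 32 replicate 1 were the lowest of their groups. Its mean was 4.31 times higher, a log2 difference of 2.14 ± 0.39 (limma adjusted p = 0.351). The 4 week 50 high libraries, at 42.1, 81.3, 91.6 and 114 TPM, lay below all 4 week 50 low libraries.

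The other genes with small p values on the higher side had varied functions. LY6E (chromosome 2, 147255592 to 147261662), a membrane-anchored protein induced by interferon, stood at 5554, 3552, 5686 and 3104 TPM in week 50 low livers and 610.4, 1355, 1251 and 1436 TPM in week 32 livers, with no overlap and a difference of 1.97 ± 0.44. CASP1 (chromosome 19, 1181943 to 1186978), the protease of the inflammasome, was at 38.4, 52.2, 44.6 and 35.6 TPM in week 50 low livers and 25.3, 22.8, 16.7 and 20.7 TPM in week 32 livers, again without overlap (0.96 ± 0.23). AP4M1, a subunit of a trafficking adaptor complex, differed by 0.78 ± 0.16 and NUDCD3, a co-chaperone, by 0.78 ± 0.18, both with all 4 week 50 low libraries above all 4 week 32 libraries. LRRC20 was low throughout, at 4.45, 3.97, 4.70 and 1.07 TPM in week 50 low livers and 0.919, 0.854, 0.135 and 0.711 TPM in week 32 livers. PGP, phosphoglycolate phosphatase, was at 38.3, 52.6, 41.4 and 16 TPM in week 50 low livers and 12.9, 16.8, 14.5 and 16.7 TPM in week 32 livers, where replicate 4 of the week 50 low group overlapped the week 32 range. Without that replicate, LRRC20, PGP and LPCAT3, an acyltransferase of membrane phospholipids, passed the adjusted test (limma adjusted p = 0.00793, 0.00159 and 0.0289).

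On the lower side, SRRL had the smallest p, at 0.766, 0.345, 0.400 and 1.10 TPM in week 50 low livers and 2.86, 1.86, 1.28 and 3.43 TPM in week 32 livers, a difference of -1.0 ± 0.21 close to the floor of the filter. CIDEA (chromosome 2, 96829423 to 96841685), a lipid droplet protein, was more abundant: it stood at 165, 204, 173 and 115 TPM in week 50 low livers and 388, 265, 288 and 289 TPM in week 32 livers. The groups did not overlap, and the difference was -0.91 ± 0.25 (limma adjusted p = 0.393). SH3BP4 differed by -0.78 ± 0.20, and its 4 week 32 libraries lay within 79.4 to 84.1 TPM while the week 50 low libraries spread over 32 to 76.9 TPM. BMP10, a ligand of the bone morphogenetic protein family, stood at 4.05, 4.35, 3.37 and 2.75 TPM in week 50 low livers and 7.26, 5.80, 7.14 and 7.68 TPM in week 32 livers (-0.79 ± 0.22). TSPAN18, a tetraspanin (-0.95 ± 0.25), FNBP1L, a membrane-bending protein of endocytosis (-0.75 ± 0.20), GXYLT2, a xylosyltransferase that acts on Notch (-0.58 ± 0.16), NCALD, a calcium sensor (-0.84 ± 0.23) and FAM110C (-1.53 ± 0.41) were all below week 32 in every library. OLFM2, a secreted olfactomedin protein, differed by -1.14 ± 0.32 with the highest week 50 low library just above the lowest week 32 library.

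**Figure D1:**
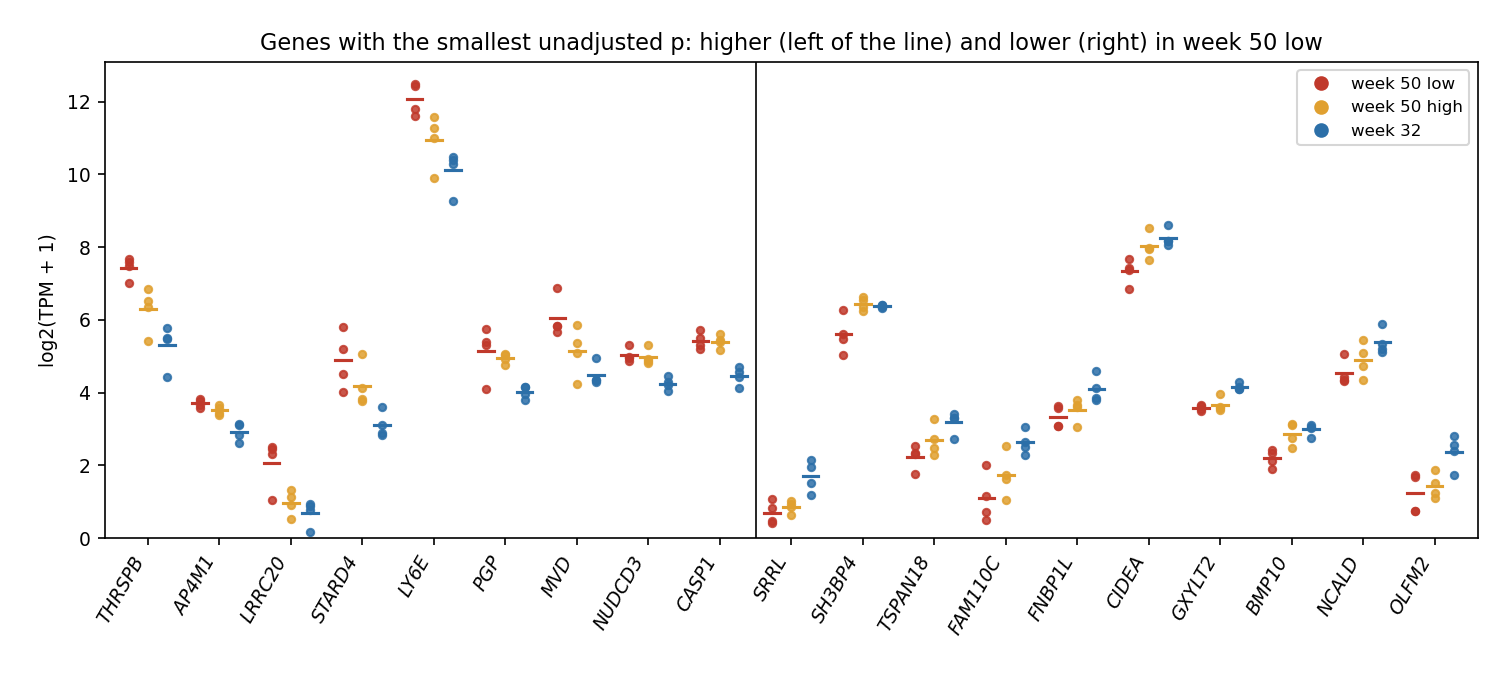
Level of genes with the smallest unadjusted p, 9 of the first 10 higher in week 50 low and the first 10 lower, as log2(TPM + 1), in the 4 libraries of week 50 low, week 50 high and week 32 (points, with bars at the group means). THRSPB separated week 50 low from both other groups, with 128 to 204 TPM in week 50 low, 42.1 to 114 TPM in week 50 high and 20.7 to 54.4 TPM in week 32, whereas for CASP1 and NUDCD3 the week 50 high libraries lay with week 50 low.

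Cholesterol synthesis was among the lists with the largest median difference. The pathway turns acetyl-CoA into mevalonate by way of HMG-CoA, mevalonate into squalene, and squalene into cholesterol. Of 17 tested enzymes, 15 were higher on average in week 50 low livers, 9 were so at an unadjusted p under 0.05 and none was lower at that level, and 9 had all 4 week 50 low libraries above all 4 week 32 libraries. The median difference was 0.95, against 0.09 over all genes, and 0.85 after median-ratio rescaling. The mean level over the list ran from 6.87 to 7.46 log2 units in week 50 low livers and from 5.72 to 6.43 in week 32 livers, without overlap. Leaving out any 1 of the 8 libraries left between 7 and 10 enzymes at that level.

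MVD (chromosome 11, 18069487 to 18072385), which makes isopentenyl diphosphate, stood at 49.8, 55.7, 55.8 and 117 TPM in week 50 low livers and 18.5, 19.2, 29.9 and 19.5 TPM in week 32 livers. Week 50 low replicate 4 was the highest of its group, and the difference was 1.57 ± 0.37 (limma adjusted p = 0.393). FDFT1 (chromosome 3, 107159522 to 107170589), squalene synthase, had the largest difference of the list, 2.14 ± 0.53, from 179, 315, 192 and 84 TPM in week 50 low livers and 29.8, 29.8, 56.5 and 43.9 TPM in week 32 livers. FDPS (chromosome 25, 2115433 to 2119023), which makes farnesyl diphosphate, was at 148, 299.5, 203 and 197 TPM in week 50 low livers and 60.6, 35.5, 102 and 65.5 TPM in week 32 livers (1.72 ± 0.49). The 4 week 50 low libraries lay above the 4 week 32 libraries for each of these enzymes.

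Along the rest of the pathway the differences were 0.69 ± 0.28 for MVK, 0.41 ± 0.23 for PMVK, 1.62 ± 0.71 for squalene epoxidase SQLE, 1.26 ± 0.44 for lanosterol synthase LSS, 1.41 ± 0.46 for NSDHL and 1.66 ± 0.59 for HSD17B7. The demethylation enzymes CYP51A1 and MSMO1 differed by 0.90 ± 0.52 and 0.95 ± 0.54. The last steps gave 0.94 ± 0.53 for DHCR7 and 0.45 ± 0.34 for SC5D. The first steps were not higher: the thiolase ACAT2 differed by -0.07 ± 0.42, with a sign that turned without week 50 low replicate 3, week 32 replicate 1 or week 32 replicate 4 (0.13, 0.017 and 0.10), and cytosolic HMG-CoA synthase HMGCS1 was at 1634, 714, 679.6 and 377 TPM in week 50 low livers and 1376, 894, 899 and 1377 TPM in week 32 livers, overlapping, with a difference of -0.59 ± 0.49.

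**Figure D2:**
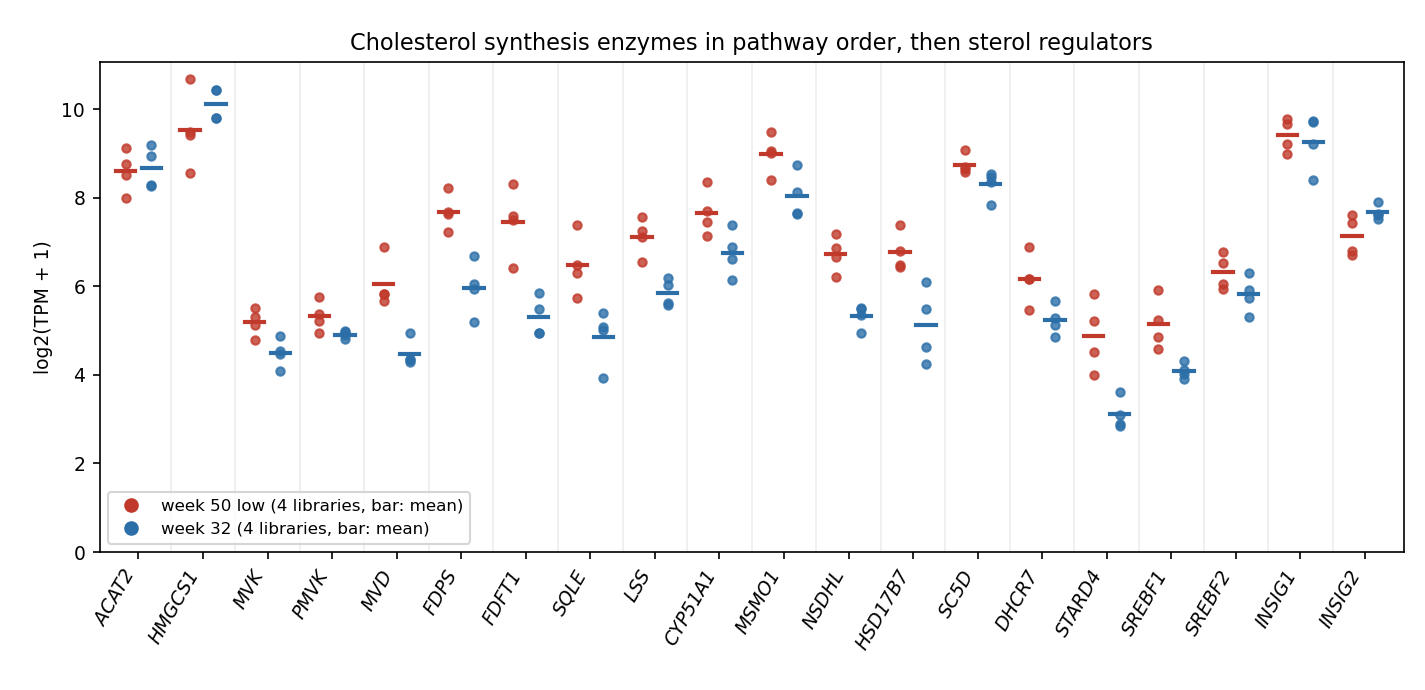
Level of 15 cholesterol synthesis enzymes in pathway order, followed by STARD4, SREBF1, SREBF2, INSIG1 and INSIG2, as log2(TPM + 1), in the 4 week 50 low libraries (left of each pair) and the 4 week 32 libraries (right), with bars at the means. MVD, FDPS and FDFT1 were separated between the groups, while HMGCS1 and INSIG1 overlapped.

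Genes that sense and move sterols were mixed. Of 16 tested, 3 were higher and 1 lower in week 50 low livers at an unadjusted p under 0.05, and the median difference was 0.31, which was 0.19 without week 32 replicate 2. STARD4 (chromosome Z, 47183903 to 47192334), a carrier of cholesterol between membranes, stood at 36, 55.4, 21.8 and 15.1 TPM in week 50 low livers and 7.61, 6.38, 6.18 and 11.2 TPM in week 32 livers, without overlap, a difference of 1.78 ± 0.39. SREBF1, a transcription factor of lipid synthesis, stood at 37.1, 28.1, 59.8 and 23.2 TPM in week 50 low livers and 13.9, 16.4, 18.8 and 15.2 TPM in week 32 livers, also without overlap (1.07 ± 0.28). SREBF2, the regulator of the sterol pathway, differed by 0.51 ± 0.28 and overlapped. INSIG2, an endoplasmic reticulum protein that retains the SREBP precursors, differed by -0.53 ± 0.25 and was the lower one, and LIPA, the lysosomal cholesteryl ester hydrolase, was higher (0.77 ± 0.34).

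Fatty acid synthesis as a list did not stand apart from all genes, with 9 of 18 members higher, 9 lower, and a median of -0.01, which was 0.20 without week 50 low replicate 3. THRSPB and MLXIPL, a glucose-responsive lipogenic transcription factor (0.58 ± 0.27), were the 2 members higher at an unadjusted p under 0.05. Among 19 genes of triglyceride assembly and lipid droplets, 4 were higher and 1 lower at that level, with a median of 0.23, which was 0.40 without week 50 low replicate 4. PLIN2, a lipid droplet coat protein, was at 257, 614, 389 and 161 TPM in week 50 low livers and 25.7, 190.1, 178 and 219 TPM in week 32 livers, and DGAT2, which makes triglyceride, at 2.27, 2.42, 8.92 and 2.95 TPM in week 50 low livers and 1.71, 1.28, 1.55 and 1.68 TPM in week 32 livers. PLIN2 overlapped between the groups (1.41 ± 0.56) and DGAT2 did not (0.84 ± 0.29). CIDEA was therefore the 1 droplet gene of the list lower at that level while LIPE, a triglyceride lipase, was higher (0.72 ± 0.26).

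The yolk precursors themselves were lower on average. The SD of the list mean among libraries was 0.56 in week 50 low livers and 0.04 in week 32 livers. Of 14 tested members 12 had a lower mean in week 50 low livers and 2 a higher one, and the median difference was -0.58. No member reached an unadjusted p under 0.05 in the fit of all 20 libraries. Without week 50 low replicate 3 the median was -0.30. The mean level of the list was 7.76 to 9.01 log2 units in week 50 low livers and 9.08 to 9.17 in week 32 livers, so every week 50 low library lay below every week 32 library. Vitellogenin 2, VTG2, the main vitellogenin, was at 9062, 13283, 4528 and 9164 TPM in week 50 low livers and 19153, 13175, 17063 and 12448 TPM in week 32 livers, with week 50 low replicate 3 the lowest and replicate 2 inside the week 32 range. VTG1 was at 3767, 6639, 595 and 3708 TPM in week 50 low livers and 13299.8, 6339.9, 7564 and 6358 TPM in week 32 livers. VTG3 did not overlap, with 1231, 1934, 986 and 839 TPM in week 50 low livers and 3191, 2409, 3399 and 2147 TPM in week 32 livers.

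The differences of VTG1, VTG2 and VTG3 were -1.55 ± 1.53, -0.86 ± 0.92 and -1.21 ± 1.09, each about as large as its SE. APOV1, apolipoprotein VLDL-II of the yolk-directed particle, stood at 35218, 34621, 11755 and 48849 TPM in week 50 low livers and 64224, 47768, 53119.6 and 40859 TPM in week 32 livers, a difference of -0.81 ± 0.98. APOB, the structural protein of the same particle, differed by -0.72 ± 0.72. The vitamin-related members of the list were also lower on average. Riboflavin binding protein RBP differed by -0.38 ± 0.92, cobalamin carrier TCN2 by -0.66 ± 0.47 and RBP4 by -0.50 ± 0.35. Biotin-handling BTD and AVD differed by -0.20 ± 0.25 and -1.0 ± 1.06. The direction of AVD rested on week 50 low replicate 3, without which its difference was 0.14. Transferrin, TF, differed by -0.33 ± 0.31, transthyretin, TTR, by 0.28 ± 0.40, and the members nearest 0 were the lipid transfer protein MTTP (0.06 ± 0.31) and A2ML1 (-0.01 ± 0.33).

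Other lipoprotein genes went the other way. Of 16 tested, 15 had a higher mean in week 50 low livers, with a median of 0.49 (0.75 without week 32 replicate 4), and 2 were higher at an unadjusted p under 0.05. APOA1 (chromosome 24, 5166355 to 5167881), the main protein of high density lipoprotein, was at 11071, 7826, 9637 and 20473 TPM in week 50 low livers and 2658, 9465, 3604 and 6181 TPM in week 32 livers, a difference of 1.23 ± 0.43 with overlap. ANGPTL4, an inhibitor of lipoprotein lipase, differed by 1.65 ± 0.73, APOA5 by 0.71 ± 0.35 and LCAT, which esterifies cholesterol in plasma, by 0.99 ± 0.51.

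**Figure D3:**
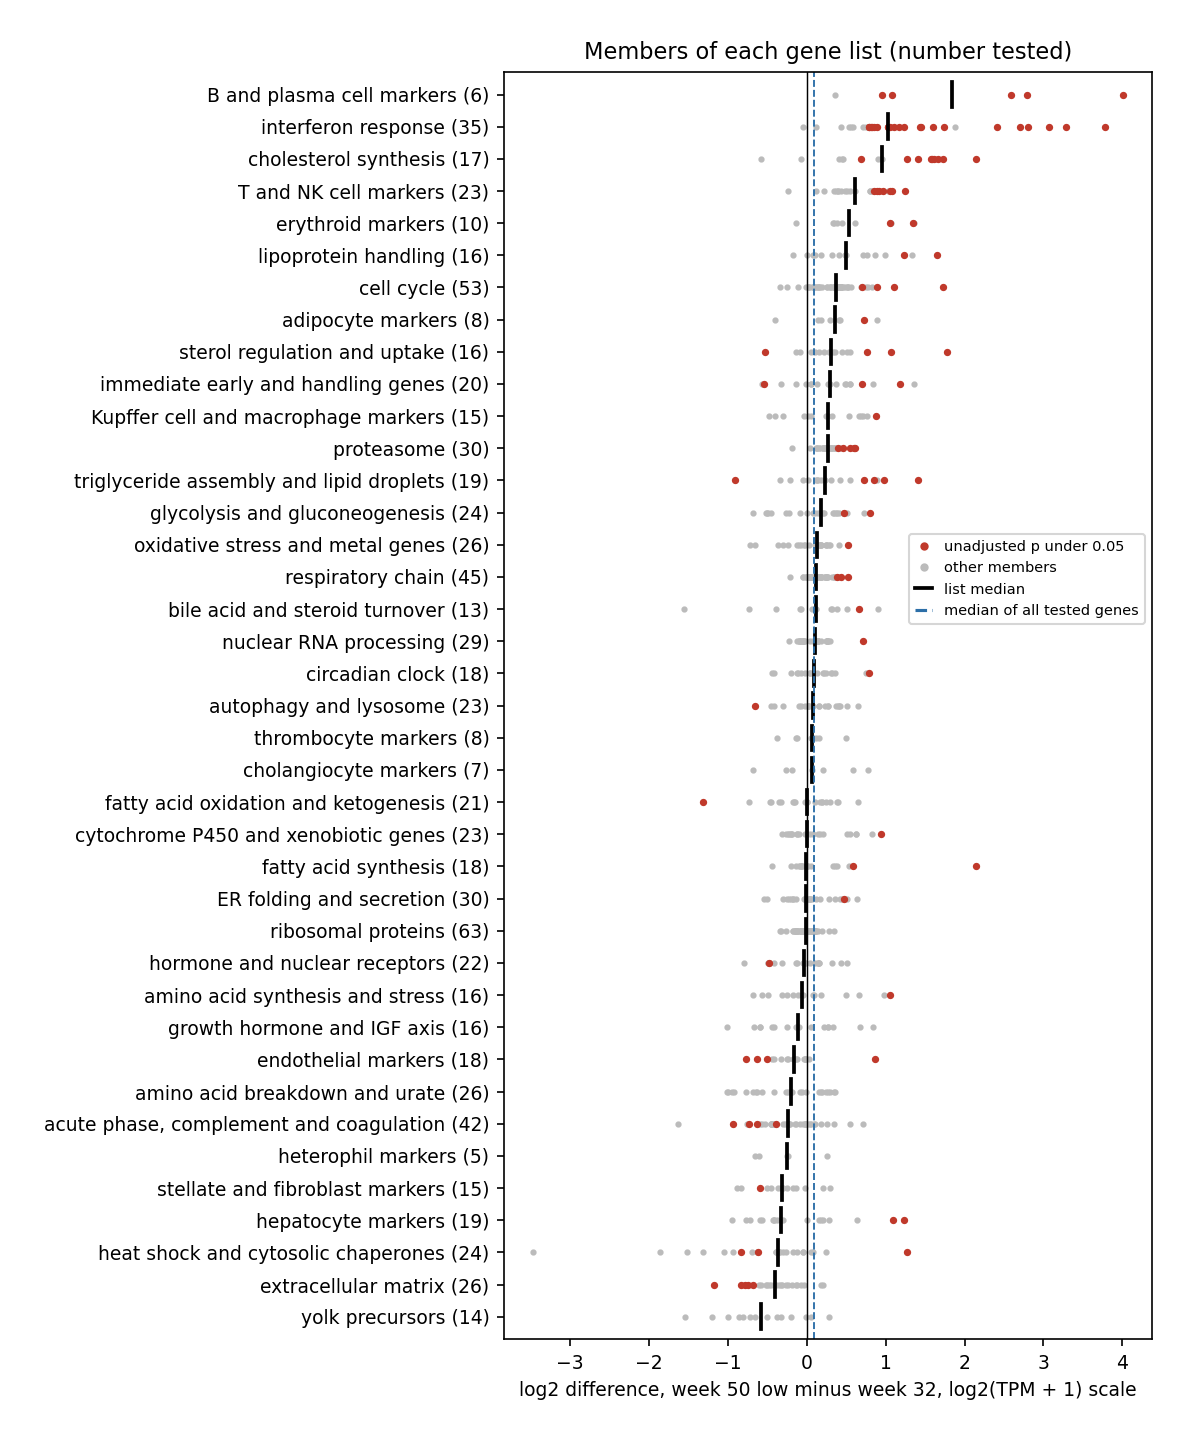
Log2 difference (week 50 low minus week 32, log2(TPM + 1) scale) of every tested member of each gene list, one row per list with the number tested in brackets, red where the unadjusted p was under 0.05, black bars at list medians, and a dashed line at the median of all tested genes, 0.09. B and plasma cell markers, interferon response and cholesterol synthesis had medians of 1.84, 1.03 and 0.95, and yolk precursors had -0.58.

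Interferon response genes were higher as a group. Type I interferons act through transcription factors such as STAT2 and IRF9 to switch on antiviral proteins that block the entry, replication or translation of viruses. Of 35 tested members, 34 had a higher mean in week 50 low livers, 22 were higher at an unadjusted p under 0.05 and none lower, and 13 had all 4 week 50 low libraries above all 4 week 32 libraries. The median difference was 1.03, and 0.93 after median-ratio rescaling. The mean level over the list was 5.27 to 6.30 log2 units in week 50 low livers and 4.36 to 4.94 in week 32 livers. Week 50 low replicate 4 was the lowest of its group. The count of 22 depended on single libraries: it was 13 without week 50 low replicate 2 and 14 without week 32 replicate 1.

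Among the effectors, CMPK2 (chromosome 3, 94666168 to 94672677), a mitochondrial nucleotide kinase, stood at 149, 159, 107 and 59.1 TPM in week 50 low livers and 13.3, 19, 19.1 and 32.3 TPM in week 32 livers, a difference of 2.41 ± 0.60 (limma adjusted p = 0.393). OASL (chromosome 12, 3411598 to 3413627), an oligoadenylate synthetase-like antiviral protein, was at 354, 432, 459 and 130.3 TPM in week 50 low livers and 19.8, 24.8, 47 and 72.7 TPM in week 32 livers (3.06 ± 0.87). IFI6 (chromosome 2, 89340072 to 89343487), an interferon-induced membrane protein, had the largest difference of the list, 3.78 ± 1.17, with 3468, 2636, 2912 and 1774 TPM in week 50 low livers and 143, 144, 158 and 402 TPM in week 32 livers. These 3 genes did not overlap between the groups, and IFI6 passed the adjusted test when only the 8 libraries were fitted (3.78 ± 0.35, limma adjusted p = 0.00537).

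MX1, the myxovirus resistance GTPase, stood at 114, 66.4, 71.1 and 21.2 TPM in week 50 low livers and 4.10, 8.29, 7.59 and 11.8 TPM in week 32 livers (2.80 ± 0.91). RSAD2, viperin, differed by 3.29 ± 1.03 and IFIT5, which binds viral RNA, by 2.71 ± 0.96, again with no overlap. Closer to the list median of 1.03 were IRF7 (1.11 ± 0.30), IRF1 (1.23 ± 0.48), STAT2 (0.89 ± 0.37) and IFI35 (1.05 ± 0.27). EIF2AK2, the kinase PKR that halts translation, differed by 1.03 ± 0.37, and ADAR, an RNA editing enzyme, by 0.79 ± 0.28.

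**Figure D4:**
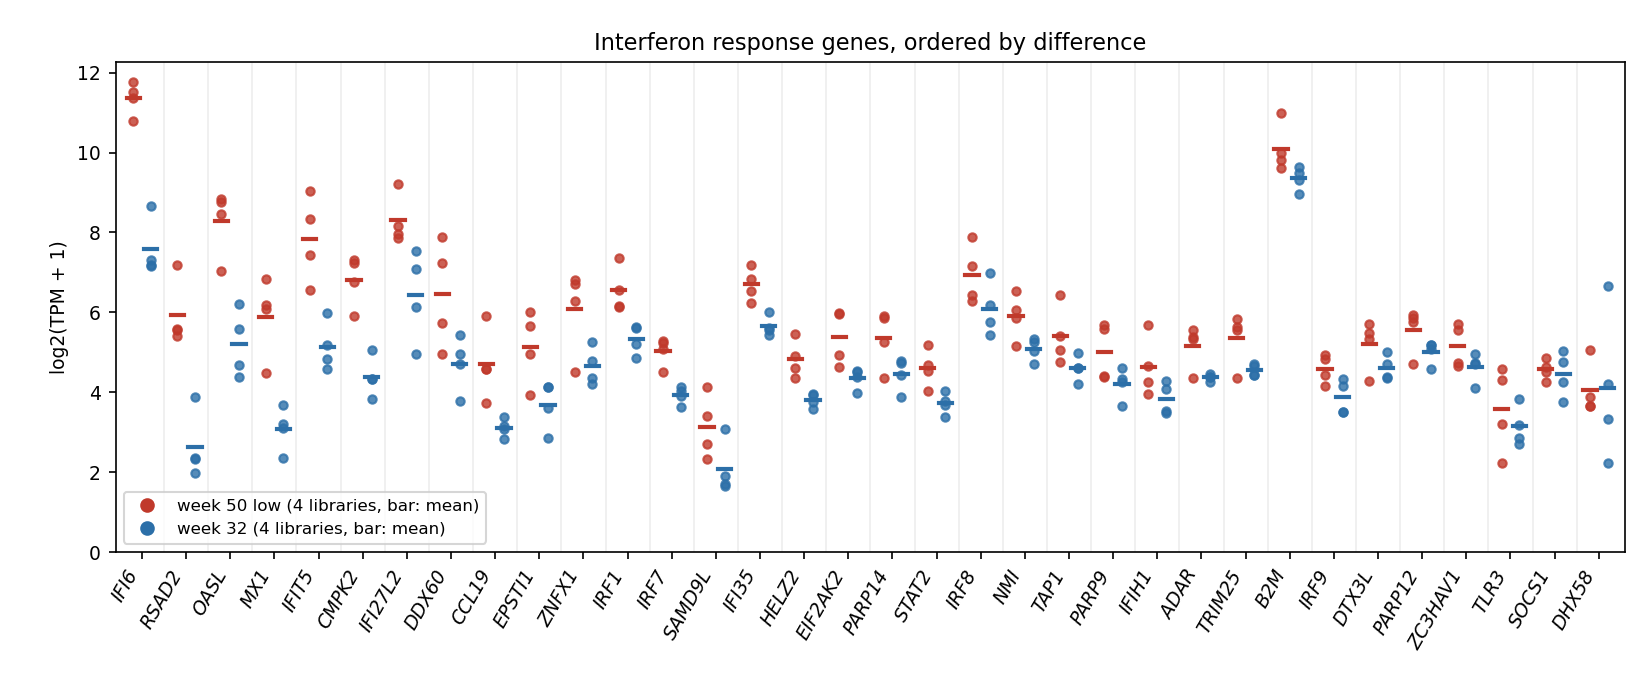
Level of 34 of the 35 tested interferon response genes, as log2(TPM + 1), in the 4 week 50 low libraries (left of each pair) and the 4 week 32 libraries (right), ordered by the difference of the means, largest first. IFI6 had 1774 to 3468 TPM in week 50 low and 143 to 402 TPM in week 32, and the gap between the groups was small or absent on the right of the plot.

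Markers of lymphocytes had higher means in week 50 low livers, but not in every library. In bulk tissue, more cells of a type and more RNA per cell cannot be told apart. Of 23 tested T and NK cell markers, 22 had a higher mean, 7 were higher at an unadjusted p under 0.05, 2 did not overlap, and the median difference was 0.61. No marker was listed at 0 in any of the 8 libraries. Their summed level was 334 to 1212 TPM in week 50 low livers and 289 to 364 TPM in week 32 livers, with replicate 3 the highest and replicate 4 the lowest week 50 low library. The mean level over the list was 3.44, 3.43, 4.03 and 2.48 log2 units in week 50 low replicates 1 to 4 and 2.64 to 2.84 in week 32 livers, so replicate 4 lay below all 4 week 32 libraries. GNLY, a pore-forming protein of cytotoxic granules, stood at 349, 281, 707 and 199 TPM in week 50 low livers and 144, 123, 142 and 174 TPM in week 32 livers (1.24 ± 0.34). GZMM, a granzyme, differed by 0.89 ± 0.26 without overlap, the perforin PRF1 by 1.08 ± 0.37 with overlap, and the T cell receptor chain CD3D by 0.96 ± 0.36. The count of 7 was 3 (median 0.39) without week 50 low replicate 3 and 14 without week 50 low replicate 4. It was 4 without week 50 low replicate 1, and also 4 without week 32 replicate 1 or without week 32 replicate 2. Interferon genes and these markers were both lowest in replicate 4 among the week 50 low libraries, and the part of lymphocytes in the interferon result was not tested.

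B and plasma cell markers had the largest median of any list, 1.84 over 6 tested members, of which 5 were higher at an unadjusted p under 0.05 and 1 did not overlap. Of 18 listed markers, 11 had values and 6 passed the filter. The most abundant members were high in 2 libraries. The immunoglobulin light chain gene IGLL1 stood at 5466, 131, 9825 and 135 TPM in week 50 low replicates 1 to 4 and 34.4, 52.3, 133 and 57.1 TPM in week 32 livers, and JCHAIN, the joining chain of polymeric antibodies, at 1053, 34.5, 1147 and 45.4 TPM in week 50 low livers and 30.8, 20.6, 37.7 and 31.3 TPM in week 32 livers. Week 50 low replicates 1 and 3 were far above the rest, and replicate 2 was inside the week 32 range for both genes. MZB1, a plasma cell chaperone of the endoplasmic reticulum, followed the same order at 17, 1.15, 93 and 1.94 TPM in week 50 low livers and 0.970, 0.515, 0.975 and 0.386 TPM in week 32 livers (2.59 ± 0.77). It was the 1 member without overlap, and its week 32 values were all under the filter's 1 TPM. POU2AF1, a B cell coactivator, differed by 1.08 ± 0.40. The summed level was 189 to 11129 TPM in week 50 low livers and 81.6 to 185 TPM in week 32 livers, and the count of 5 was 3, with a median of 1.15, without week 50 low replicate 3.

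Erythroid markers were high in the same replicate 3. The globin HBBA stood at 207, 58.6, 1598 and 252 TPM in week 50 low livers and 121, 60.8, 118 and 134 TPM in week 32 livers, and the summed level of the list was 237 to 3896 TPM in week 50 low livers and 277 to 494 TPM in week 32 livers. At an unadjusted p under 0.05, 2 of 10 were higher, HBBA (1.34 ± 0.60) and SLC4A1, the red cell anion exchanger (1.06 ± 0.50). Macrophage markers summed to 2037 to 5945 TPM in week 50 low livers and 2282 to 2702 TPM in week 32 livers. C1QC, a chain of complement C1q, was the 1 of 15 higher at that level (0.88 ± 0.33), a share near the 6.72% of all genes. Replicate 3 of the week 50 low group thus carried the highest lymphocyte, plasma cell, red cell and macrophage sums and the lowest yolk precursor sum. The part of these cells in the results that this library moves was not tested.

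**Figure D5:**
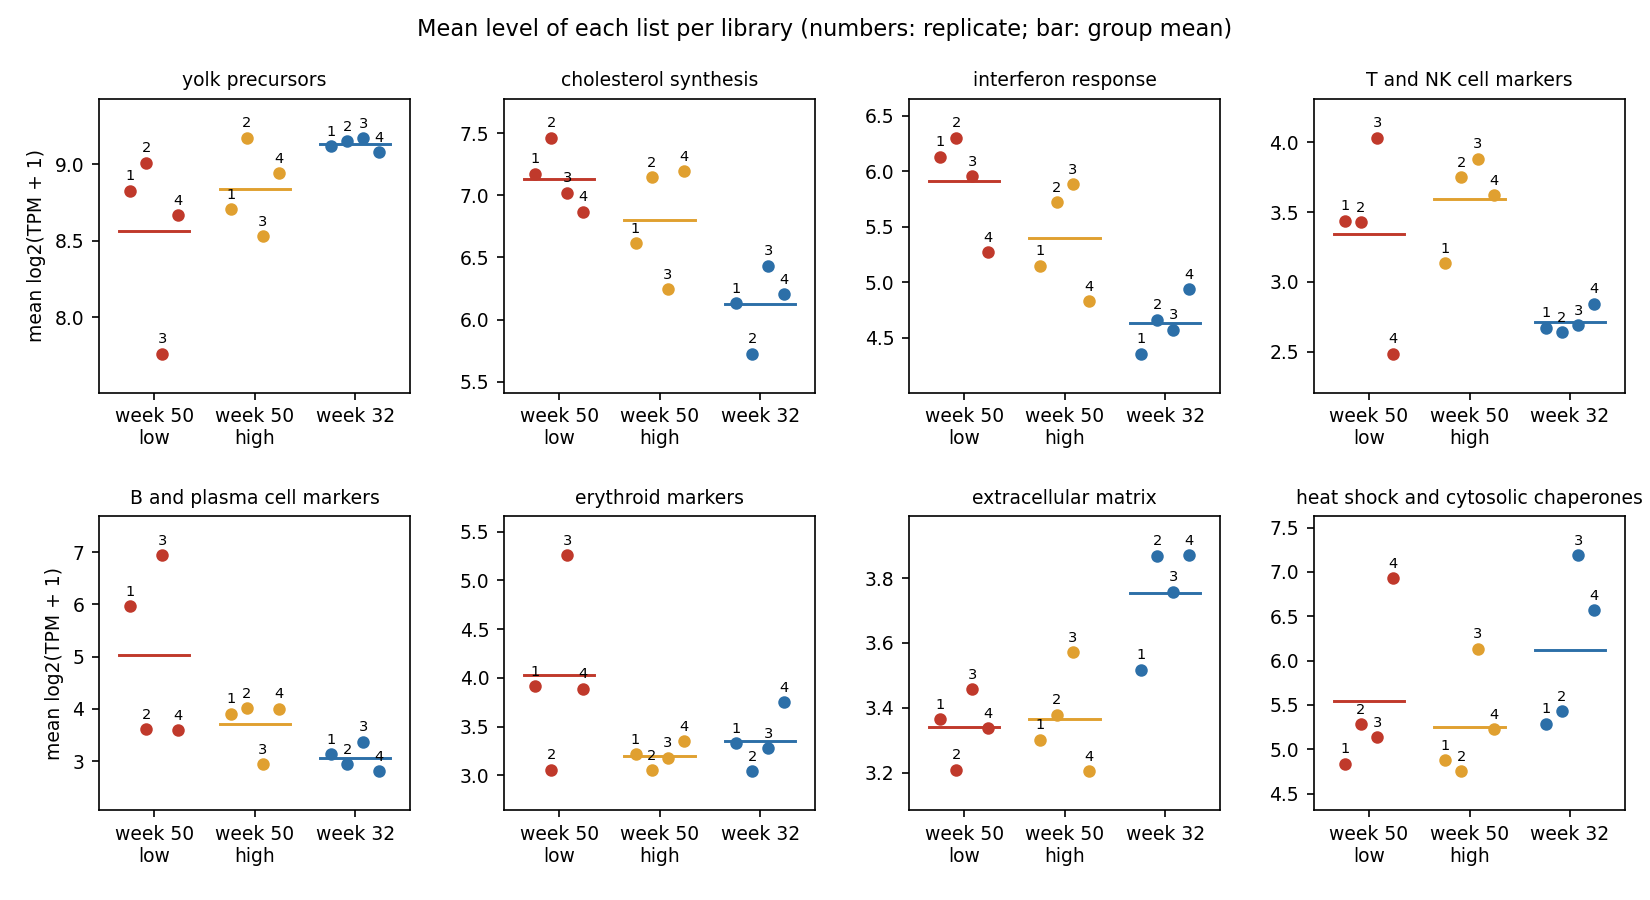
Mean log2(TPM + 1) over the tested members of 8 gene lists in each library of week 50 low, week 50 high and week 32 (points, numbered by replicate, with bars at the group means). Interferon and cholesterol synthesis libraries of week 50 low all lay above week 32, B and plasma cell markers were high in week 50 low replicates 1 and 3, and heat shock genes were high in week 50 low replicate 4 and week 32 replicates 3 and 4.

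Matrix genes were lower on average. Of 26 tested extracellular matrix genes, 24 had a lower mean in week 50 low livers, 5 were lower at an unadjusted p under 0.05, 6 lay below week 32 in every library, and the median difference was -0.40 (-0.49 after median-ratio rescaling). The smallest p was that of a basement membrane collagen. COL4A2 (chromosome 1) stood at 8.07, 6.49, 9.92 and 6.18 TPM in week 50 low livers and 12.3, 13.5, 14 and 14.9 TPM in week 32 livers, without overlap (-0.78 ± 0.23), and COL4A1 at 14.9, 11.2, 14.5 and 12.4 TPM in week 50 low livers and 19, 24.3, 19.3 and 24.7 TPM in week 32 livers (-0.68 ± 0.25). LOX, which crosslinks collagen, differed by -1.18 ± 0.43 and SERPINH1, the collagen chaperone, by -0.83 ± 0.34, both with overlap and with week 32 replicates 3 and 4 the highest. The count of 5 was 2 without week 32 replicate 3, 2 without week 32 replicate 4 and 3 without week 50 low replicate 2, and it was 8 after median-ratio rescaling.

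Stellate and endothelial markers also had lower means for most members. Of 15 stellate and fibroblast markers 13 had a lower mean and 1 was lower at an unadjusted p under 0.05, PDGFRB, the receptor for platelet-derived growth factor (-0.60 ± 0.24). Their summed level, 190 to 235 TPM in week 50 low livers and 265 to 292 TPM in week 32 livers, did not overlap. Of 18 endothelial markers 16 had a lower mean, 3 were lower at that level and 1 higher, with a median of -0.17, which was -0.05 without week 50 low replicate 4 and -0.34 without week 50 low replicate 3. Their summed level overlapped, at 185 to 388 TPM in week 50 low livers and 203 to 310 TPM in week 32 livers, and week 50 low replicate 3 was the highest of the 8. The receptor TEK stood at 11.3, 10.8, 13.1 and 11.8 TPM in week 50 low livers and 22.1, 16.7, 17.1 and 19.9 TPM in week 32 livers (-0.64 ± 0.19), and VWF, von Willebrand factor, at 6.71, 8.37, 8.23 and 9.17 TPM in week 50 low livers and 19.6, 13.4, 11.3 and 15 TPM in week 32 livers (-0.78 ± 0.26). PLVAP, a protein of endothelial diaphragms, went the other way (0.86 ± 0.31). The part of these cells in the matrix result was not tested.

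Among 42 acute phase, complement and coagulation genes, 32 had a lower mean in week 50 low livers, 4 were lower at an unadjusted p under 0.05, 5 lay below week 32 in every library, and the median was -0.24, which was -0.14 without week 50 low replicate 4. The protease inhibitor A2M stood at 275, 362, 473 and 393 TPM in week 50 low livers and 693, 547, 614 and 460.4 TPM in week 32 livers, with 1 week 50 low library above the lowest week 32 library (-0.63 ± 0.23). Differences were -0.93 ± 0.39 for the membrane attack component C7 and -0.39 ± 0.18 for coagulation factor X, F10. The count of 4 was 7 without week 32 replicate 3 and 8 after median-ratio rescaling.

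Heat shock genes followed libraries more than groups. The inducible chaperone HSPA2 stood at 61.5, 152, 67.7 and 6093 TPM in week 50 low replicates 1 to 4 and 89.4, 157, 5918 and 1799 TPM in week 32 replicates 1 to 4, and the small heat shock gene HSPB9 at 6.07, 1142, 11.1 and 4201 TPM in week 50 low livers and 31.9, 2924, 11798 and 5381 TPM in week 32 livers. Week 50 low replicate 4 and week 32 replicates 3 and 4 were high for both genes, and the groups overlapped. HSPB9 was also high in replicate 2 of each group, at 1142 TPM in week 50 low and 2924 TPM in week 32. Of 24 tested genes 20 had a lower mean in week 50 low livers, with a median of -0.37 that was -0.13 without week 32 replicate 3 and -0.64 without week 32 replicate 2. Leaving out week 50 low replicate 1, 3 or 4 gave -0.25, -0.24 and -0.75 in turn. Of these genes 1 was higher at an unadjusted p under 0.05 and 2 were lower. HSP90AB1, a constitutive chaperone, was the higher one (1.27 ± 0.36), while SERPINH1 and the mitochondrial chaperonin HSPD1 (-0.62 ± 0.27) were lower. The immediate early list was also highest in week 50 low replicate 4, with 2 of 20 higher and 1 lower at that level, among them MYC (1.18 ± 0.44) and CEBPB (-0.54 ± 0.24).

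Of the housekeeping lists, 29 of 30 proteasome subunits had a higher mean in week 50 low livers, 5 at an unadjusted p under 0.05 and 5 without overlap, with a median of 0.26. PSMB3, a core subunit, stood at 118, 124, 173 and 125 TPM in week 50 low livers and 82.3, 106, 83.4 and 82.7 TPM in week 32 livers (0.59 ± 0.16), and the catalytic PSMB5 differed by 0.61 ± 0.17. The count of 5 was 3 after median-ratio rescaling, 3 without week 50 low replicate 3 or without week 32 replicate 1, 9 without week 32 replicate 2 and 12 without week 50 low replicate 4. Of 53 cell cycle genes 49 had a higher mean, with a median of 0.37. At an unadjusted p under 0.05, 4 of the 53 were higher, a share near the 6.72% of all genes. The smallest p was that of BUB1, a mitotic checkpoint kinase, at 11, 33.1, 15.8 and 18.2 TPM in week 50 low livers and 2.26, 6.71, 6.38 and 5.05 TPM in week 32 livers (1.72 ± 0.45). The cell cycle median was 0.16 without week 32 replicate 3, and the mean level over that list overlapped, at 2.43 to 2.73 log2 units in week 50 low livers and 1.73 to 2.85 in week 32 livers, where replicate 4 lay above every week 50 low library. The respiratory chain had a median of 0.12, near the 0.09 of all genes. After median-ratio rescaling it was 0.02, against 0.00 for all genes. Leaving out replicate 3 of the week 50 low group gave 0.07, and leaving out replicate 1 of that group gave 0.23. Of its 45 members 40 were higher in mean. At an unadjusted p under 0.05, 3 of the 45 were higher, which is also close to the 6.72% of all genes. The 63 ribosomal proteins had a median of -0.01 and none at that level in either direction.

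The remaining metabolic lists had few members at an unadjusted p under 0.05, where all genes had 6.72% higher and 2.19% lower. Fatty acid oxidation, with a median of 0.00, had 1 of 21 lower at an unadjusted p under 0.05, PDK4, which turns off pyruvate oxidation (-1.32 ± 0.61). Glycolysis and gluconeogenesis had 2 of 24 higher, PFKFB1 (0.80 ± 0.26) and TPI1 (0.47 ± 0.22), and a median of 0.17 (0.30 without week 32 replicate 4 and 0.09 without week 50 low replicate 3). Amino acid breakdown had a median of -0.20, with 18 of 26 lower in mean and none at that level (median -0.09 without week 32 replicate 1 and -0.31 without week 50 low replicate 1), and cytochrome P450 and xenobiotic genes 0.00 with 1 of 23 higher, the glutathione transferase GSTA3 (0.94 ± 0.39). Bile acid turnover had 1 of 13 higher, BAAT, which conjugates bile acids (0.66 ± 0.22). Among hormone and nuclear receptors 1 of 22 was lower, the insulin receptor INSR (-0.48 ± 0.19), and in the growth hormone and IGF list none of 16 was at that level.

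Several lists held at most 1 member at an unadjusted p under 0.05, against 6.72% higher and 2.19% lower over all genes. That member was higher for ER folding and secretion, the translocon subunit SEC61B (0.48 ± 0.18, 1 of 30), for oxidative stress and metal genes, thioredoxin TXN (0.53 ± 0.19, 1 of 26), for nuclear RNA processing, HNRNPDL (0.72 ± 0.28, 1 of 29), for the circadian clock, the repressor BHLHE41 (0.79 ± 0.26, 1 of 18), and for amino acid synthesis, the mitochondrial folate enzyme MTHFD2 (1.05 ± 0.49, 1 of 16). It was lower for autophagy and lysosome, GABARAPL1 (-0.66 ± 0.25, 1 of 23). Among the cell markers, LIPE was the 1 of 8 adipocyte markers at that level, and none of 7 cholangiocyte, 5 heterophil or 8 thrombocyte markers was. Hepatocyte markers had 2 of 19 higher, APOA1 and the arginine synthesis enzyme ASS1 (1.10 ± 0.43), none lower, and a median of -0.33, which was -0.13 without week 50 low replicate 3.

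High-laying hens of the same age allow age to be held fixed. No gene was called between week 50 low and week 50 high livers (limma with Benjamini-Hochberg adjustment, 0% of 12808), and the smallest adjusted p was 1. In week 50 low livers 125 genes (0.976%) were higher and 255 (1.99%) lower at p under 0.05 without adjustment. Together these were 380 genes, fewer than the 640.4 expected by chance at that threshold. The fit takes its spread from all 20 libraries, so this shortfall does not measure how alike the week 50 groups were. The comparison of week 50 high with week 32 uses the same week 32 libraries, so its values stand beside the first only as a description. Against week 32, the median difference was 0.95 in week 50 low and 0.71 in week 50 high for cholesterol synthesis, 1.03 and 0.62 for interferon response, -0.40 and -0.40 for extracellular matrix, and -0.58 and -0.31 for yolk precursors. The medians for week 50 low minus week 50 high were 0.22 for cholesterol synthesis, 0.42 for interferon response, -0.05 for extracellular matrix and -0.29 for yolk precursors. These medians moved with single libraries: leaving out 1 library of the week 50 groups at a time gave 0.03 to 0.43 for cholesterol synthesis, 0.22 to 0.58 for interferon response, -0.14 to 0.02 for extracellular matrix and -0.48 to 0.02 for yolk precursors, the last positive without week 50 low replicate 3. At an unadjusted p under 0.05, 1, 0, 0 and 0 members of these lists were higher and none was lower. With only the groups compared, 3 cholesterol and 7 interferon members were higher at that level. Interferon response had 5 without week 50 low replicate 4, 4 with median-ratio scaling and 3 with a replicate block. Cholesterol synthesis had 0 without week 50 high replicate 3.

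Single genes differed in how they stood between the week 50 groups. The single genes given here were named for a small p against week 32, which uses the same week 50 low libraries. THRSPB was 1.15 ± 0.39 higher in week 50 low than in week 50 high, MVD 0.92 ± 0.37 and LY6E 1.14 ± 0.44, whereas CASP1 (0.03 ± 0.23), NUDCD3 (0.04 ± 0.18) and PSMB3 (-0.01 ± 0.16) were within their SE of 0. SH3BP4 was at 92.7, 81.3, 97.7 and 75 TPM in week 50 high livers, a difference of -0.85 ± 0.20 for week 50 low minus week 50 high. T and NK markers had a median of 0.61 in week 50 low and 0.84 in week 50 high against week 32, and -0.26 between the week 50 groups, which was 0.06 without week 50 low replicate 4. B and plasma cell markers had 1.72 between the week 50 groups, with 3 of 6 higher at an unadjusted p under 0.05, and erythroid markers 0.78 with 5 of 10, against 0.976% of all genes. Without week 50 low replicate 3 these were 1.03 with 1 of 6 and 0.39 with 1 of 10, and B and plasma cell markers also had 1 of 6 without week 50 low replicate 1 or week 50 high replicate 3, and erythroid markers 3 of 10 without week 50 high replicate 2. With only the groups compared, 1 member of each list was higher at that level. None of these differences between the week 50 groups passed the adjusted test in limma.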

How the data were processed

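Per the labels' protocols, total RNA was isolated from liver and mRNA-enriched libraries were sequenced. The authors deposited 1 table of TPM (a transcript abundance scaled by length and to a fixed library total, so sequencing depth is unknown). The submitters' processing notes name build GRCg7b. Not given in the sources used here are the aligner, the counting tool and the annotation release. All 20 columns were matched to samples by title, leaving 0 unmatched.

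A gene was tested where 4 or more libraries held 1 TPM or more, on log2(TPM + 1), a pseudocount of 1. A linear model with a term for each group and all 20 libraries was run in limma 3.58.1 (R 4.3.3), with a mean-variance trend and Benjamini-Hochberg adjustment over 12808 genes, and checked on simulated data. The other groups share the estimate of spread. Symbols were matched to a RefSeq table of GRCg7b (20888 matched, 861 not), and its positions are given. Tables and figures used Python 3.11.15.

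The members and the 39 gene lists (996 genes, 866 in the table, 830 tested) were chosen with earlier results of these data known. Named genes are those with the smallest unadjusted p, up to 10 in each direction (symbols starting with LOC left out), every yolk precursor, and up to 4 of each other list by smallest p. The other cholesterol and interferon genes, LPCAT3, HSPA2, HSPB9, ALB, SREBF2 and INSIG1 fall outside that rule and were chosen after their values were seen. A few genes that the rule names, or that belong to a list, are counted in it but not reported here. Alternatives were another pseudocount, filter, scaling, sample set, trend setting, a replicate block and each library left out.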

Additional observations from a re-analysis of the deposited data

Results flagged for a closer look

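Values were compared on the log2(TPM + 1) scale within each group of 4 libraries. A value was set apart where the gap between the highest or lowest library and its nearest neighbour exceeded Dixon's critical value. The gap was taken as a share of the whole range of the group on that scale. Among 118 genes in 2 groups, 236 groups of 4 were looked at and 17 values met this, and about 1 group in 20 would do so by chance.

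In the week 50 low group, replicate 4 stood apart at 117 TPM for MVD, 1.07 TPM for LRRC20 and 1.89 TPM for A2ML1. Replicate 3 stood apart at 173 TPM for PSMB3, 32.4 TPM for NCALD and 8.92 TPM for DGAT2. Replicate 2 stood apart at 143 TPM for RSAD2 and 2776 TPM for TTR.

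In the week 32 group, replicate 1 stood apart at 610 TPM for LY6E and 25.7 TPM for PLIN2, the lowest value in each case. Replicate 2 stood apart at 106 TPM for PSMB3, 60.8 TPM for HBBA and 1.60 TPM for A2ML1, replicate 3 at 29.9 TPM for MVD, and replicate 4 at 402 TPM for IFI6, 53 TPM for GABARAPL1 and 29.4 TPM for BAAT.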

How the results depend on the processing

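Of 1878 values of 118 named genes under 16 alternatives, 1858 kept their sign and their side of the adjusted threshold, and 3 passed it. With only the groups compared, 1 gene was called higher (IFI6), and leaving out 1 library gave 0 to 3. At an unadjusted p under 0.05, 435 to 1985 genes were higher when 1 library was left out, and 552 were lower with no filter, 183 with TPM of at least 5 and 554 with median-ratio scaling. Leave-one-out counts of members were 13 to 28 for interferon response, 3 to 14 for T and NK cell markers, 3 to 5 for B and plasma cell markers, 3 to 12 for proteasome, 2 to 6 for extracellular matrix and 3 to 7 for acute phase, complement and coagulation. Without the 3 libraries least like the others (week 50 low replicate 3, week 50 high replicate 1 and week 72 low replicate 2), an alternative chosen after seeing the data, 589 genes were higher and 307 lower, with 17 interferon, 10 cholesterol, 3 T and NK and 3 B and plasma cell members higher. B and plasma cell markers gave 3 with TPM of at least 5, proteasome 9 with no filter and 3 with median-ratio scaling, extracellular matrix 8 with median-ratio scaling, and acute phase, complement and coagulation 8 with median-ratio scaling and 7 with only the groups compared. Leaving out each week 50 high library, also chosen after seeing the data, gave 0 genes called between the week 50 groups each time.

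The sign turned for 5 genes. A2ML1 was 0.026 with median-ratio scaling, 0.12 without the 3 libraries and -0.35 to 0.28 when 1 library was left out. ACAT2 was 0.13 without the 3 libraries and -0.25 to 0.13 when 1 library was left out, and AVD, at -1.0 with all libraries, was 0.14 and -1.67 to 0.14, positive only without week 50 low replicate 3 among the single libraries left out. INSIG1 was -0.14 to 0.31 when 1 library was left out, and MTTP was -0.041 with median-ratio scaling and -0.14 to 0.25 when 1 library was left out.

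The replicate numbers are shared between groups, but same-numbered libraries did not deviate together throughout (r of deviations 0.246, 0.228, 0.208 and -0.00675 for numbers 1 to 4), and libraries of 3 of the 4 numbers correlated best with their own number. The main fit had no replicate term. With a replicate block, 0 genes were called, 992 were higher and 294 lower at an unadjusted p under 0.05, and no call changed. The smallest limma adjusted p was then 0.155. Members higher at the unadjusted level were 27 for interferon response (22 in the main fit), 10 for T and NK cell markers (7) and 7 for proteasome (5). For cholesterol synthesis they stayed at 9. TPM keeps no absolute depth, so counting error is unknown, and 4 libraries a group limit the precision.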

Other observations

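The 8 libraries of week 72 entered the fit for the estimate of spread and no comparison above. THRSPB ran over 45 to 171 TPM in week 72 low livers and 44.1 to 104 TPM in week 72 high livers. CMPK2 ran over 11.6 to 66.5 TPM in week 72 low livers and 14.7 to 105 TPM in week 72 high livers. MVD ran over 7.66 to 23.8 TPM in week 72 low livers and 20.4 to 43.1 TPM in week 72 high livers. VTG2 ran over 95.1 to 13572 TPM in week 72 low livers and 12212 to 16071 TPM in week 72 high livers. COL4A2 ran over 7.96 to 11.7 TPM in week 72 low livers and 4.41 to 12.5 TPM in week 72 high livers. These ranges are given as values, with no test.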
